A study of Drosophila melanogaster with 18 samples.

Results

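Drosophila Schneider 2 (S2) cells that had taken up double-stranded RNA against XBP-1 were compared with cells that had taken up none, after both had been stressed with dithiothreitol (DTT). The comparison used 6 of the 18 spotted 2-colour arrays of the study, chosen by their labels: replicates A, B and C of XBP-1 RNAi with DTT and replicates A, B and C of the control with DTT. S2 cells are a cultured line with properties of hemocytes, the blood cells of the fly. Cells of the XBP-1 RNAi groups received about 15 µg/ml of double-stranded RNA in 3 rounds, and control cells went through the same steps without double-stranded RNA, so a response to double-stranded RNA of any sequence would be part of the difference. DTT was given at 2 mM for 7.4 hours. The 6 arrays of the same cells without DTT, and the 3 arrays labelled IRE1 RNAi with DTT, served as comparisons. Cells labelled IRE1 RNAi were likewise given about 15 µg/ml of double-stranded RNA in 3 rounds, and the same DTT. Each array carried 16 µg of sample RNA labelled with Cy5 against 1 common Cy3 reference, made from S2 cells with and without DTT and from embryos. The labels do not say that the replicate letters stand for separate cultures, so the p-values reflect how these samples varied, and that variation may be technical.

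Secreted and membrane proteins fold in the endoplasmic reticulum (ER), where chaperones hold them and disulphide isomerases join their cysteines. DTT reduces those disulphides, and the misfolded proteins that build up switch on the unfolded protein response. The ER membrane protein IRE1 then cuts the mRNA of XBP-1, which is rejoined and translated into an active transcription factor that is known to raise genes of ER folding, import, quality control and export. IRE1 also takes part in the decay of other mRNAs bound to the ER membrane, and the kinase PERK slows translation in a branch of its own.

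Values are the deposited log ratios, read as log2 of sample over reference, with the median of each array set to 0. Neither the base nor the direction is stated with the values. If they were natural logarithms, each fold given here would be larger. On the 6 arrays between 5593 and 6328 of 7257 probes had a value, the array medians ran from -0.58 to 0.24, and 4616 probes were measured on all 6. Arrays of the control group correlated with each other at 0.849 to 0.86 across probes, and those of the XBP-1 RNAi group at 0.706 (A and B), 0.639 (A and C) and 0.83 (B and C). Over all 18 arrays, 14 of 17 marker genes of muscle, nerve, cuticle, fat body and gut had a mean below the array median. The median of the 17 was -0.57, and the muscle myosin Mhc stood at -2.32. The hemocyte genes Hml and eater had too few values to be tested, and the other hemocyte markers are given below.

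The 2 probes of the targeted gene, Xbp1, had lower values on the XBP-1 RNAi arrays, but neither passed the test. The first stood at log2 ratios of -0.13, 0.04 and 0.17 in replicates A, B and C of control with DTT and at -0.78, -0.40 and -0.40 under XBP-1 RNAi. The second stood at -0.46, -0.05 and -0.50 in control and at -0.74, -0.55 and -0.60 under XBP-1 RNAi. The groups did not overlap for either probe, although they nearly met for the second. The share of all probes that separate in this way is not given here, so nothing is read from it. The differences were -0.55 ± 0.18 (SE from limma, 3 arrays per group, adjusted p = 0.0718) and -0.29 ± 0.16 (adjusted p = 0.352). With quantile normalization the first became -0.63 and passed (adjusted p = 0.0461). Without DTT the same probes differed by -0.62 and -0.59. Unspliced and spliced Xbp1 mRNA are not told apart by these values. Ire1, whose product acts upstream of Xbp1, stood at 0.17, -0.09 and -0.17 in control and at -0.53, 0.20 and 0.59 under XBP-1 RNAi, and its difference of 0.12 ± 0.41 did not pass (adjusted p = 0.923).

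Under DTT, XBP-1 RNAi cells held much less mRNA of the ER folding machinery than control cells, and less of the machinery for import, glycosylation, degradation and export, while the translation inhibitor gene Thor and a smaller set of other genes were higher. In limma 331 of 5877 probes fell, which is 5.63% of those tested, and 122 rose, which is 2.08%. The falls were also the larger changes: 192 exceeded 2-fold and 23 exceeded 4-fold, against 49 and 1 of the rises. Of the 331 probes that fell, 287 were lower in all 3 pairs of arrays with the same letter, and 110 of the 122 that rose were higher in all 3. These probes were called on the same arrays, so the agreement of pairs is no separate support. A probe with a dropped spot on any of these arrays could not count. The share of calls that were falls was 73.1%, which became 83.5% on the values as deposited (212 fell and 42 rose) and 83.8% without the replicate letter in the model (201 fell and 39 rose). Fitted on the 6 arrays alone, 325 fell and 170 rose, a share of 65.7%. The median difference of all probes was 0.04. In bulk RNA of this kind, fewer cells of a type and less RNA per cell cannot be told apart.

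Without DTT the same comparison gave no call in limma. Of 5719 probes 0 rose and 0 fell, the smallest adjusted p was 0.388, and 580 had an unadjusted p under 0.05. On the values as deposited 2 fell. Among the arrays without DTT, XBP-1 RNAi B lacked a value for 33.2% of probes and control C for 31.7%. Of the 331 probes that fell with DTT, 328 were measured without it, and 152 of these were lower there, with a median difference of 0.03. Of all 5483 probes measured in both states, 49.9% were lower without DTT. A missed threshold does not show that the cells were alike before stress. The difference between the effects of XBP-1 RNAi with and without DTT was therefore tested itself: in limma 246 of 5483 probes (4.49%) had a lower effect with DTT and 122 (2.23%) a higher one.

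**Figure D1:**
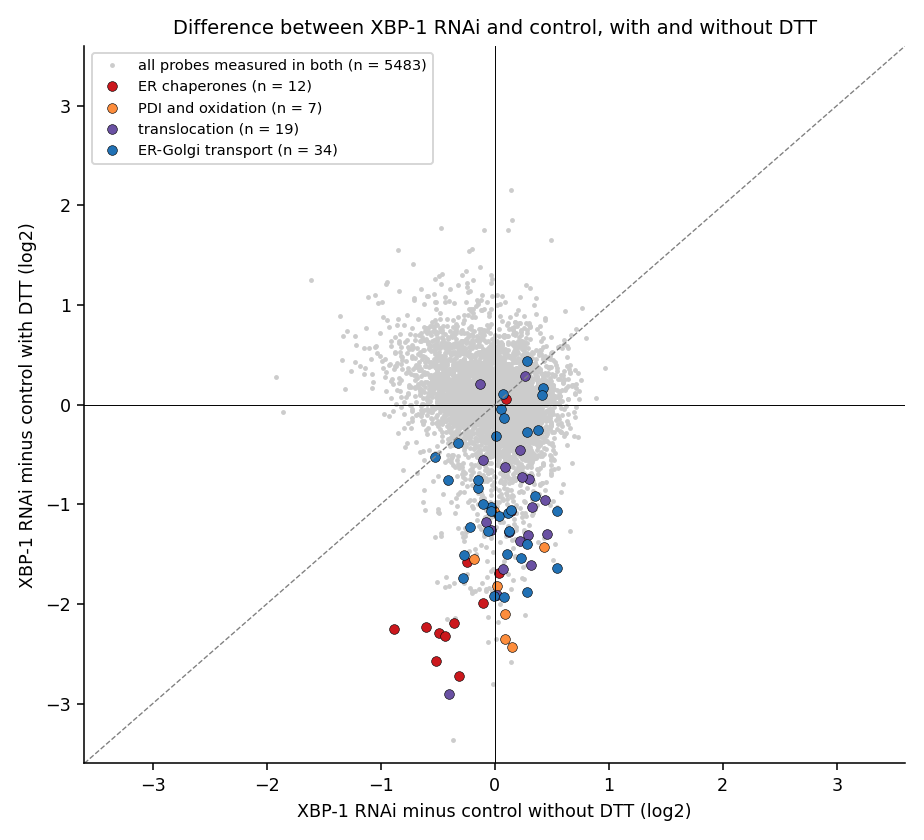
Each point is a probe, with its log2 difference of XBP-1 RNAi from control on both axes, horizontal for cells without DTT and vertical for cells with DTT, and 4 gene lists in colour over all 5483 probes in grey. Most coloured points lie below 0 on the vertical axis and near 0 on the horizontal one; Hsc70-3 is the red point farthest to the left, at -0.88, and Trp1 the lowest coloured point.

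ER chaperones formed the group with the lowest median of the 22 gene lists used. Of 12 probes tested (11 genes) 11 fell and 0 rose, with a median log2 difference of -2.21. The count was 11 under each of 15 alternatives of processing, and the median lay between -2.40 and -1.998. The only member that did not pass was CG14715, at 0.06 ± 0.22 (adjusted p = 0.931). The C array of XBP-1 RNAi with DTT stood apart, with a median level of the list of -0.34 against -1.20 and -1.32 in A and B. The 3 control arrays had list levels of 0.92 to 1.28. Without replicate C the median difference was -2.40.

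Gp93, the ER member of the Hsp90 family, stood at log2 ratios of 1.58, 1.27 and 1.52 in replicates A, B and C of control with DTT and at -1.49, -1.82 and -0.50 under XBP-1 RNAi. The lowest control array was thus well above the highest XBP-1 RNAi array, and replicate C of XBP-1 RNAi was the least reduced. The difference of -2.73 ± 0.26 is a 6.62-fold lower level (adjusted p = 2.77e-06). Hsc70-3, the ER Hsp70 known as BiP, which binds unfolded chains and holds IRE1 inactive, stood at 1.21, 1.36 and 1.30 in control. Under XBP-1 RNAi it stood at -1.71, -1.78 and 0.59. Arrays A and B of XBP-1 RNAi were close together, and C lay between them and the controls. The difference was -2.26 ± 0.38, or 4.78-fold (adjusted p = 0.000597).

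Partners of Hsc70-3 fell too. The 2 probes of shv, a J-domain cochaperone of the ER, stood between 0.97 and 1.69 in control and between -1.81 and -0.28 under XBP-1 RNAi, and differed by -2.57 ± 0.25 and -2.30 ± 0.21. P58IPK, another J-domain protein of the ER lumen, stood at 1.50, 1.44 and 1.77 in control and at -0.54, -1.40 and -0.32 under XBP-1 RNAi. Its groups were far apart, with a difference of -2.32 ± 0.22 (adjusted p = 2.57e-06). Sil1 and Grp170, which recharge Hsc70-3 by exchanging its nucleotide, fell by 1.69 and 2.23. The lectin chaperones Calr (calreticulin) and Cnx99A (calnexin), which hold glycoproteins, differed by -1.99 ± 0.19 and -1.58 ± 0.22. Fkbp14, a prolyl isomerase of the ER, differed by -2.19 ± 0.27. BI-1, a membrane protein that protects cells under ER stress, had the smallest change of those that passed, -1.06 ± 0.21 (2.09-fold, adjusted p = 0.00295).

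The disulphide enzymes fell as a group. All 7 tested members of the list of protein disulphide isomerases and oxidation enzymes fell, with a median of -1.82, and all 7 did so under each of the 15 alternatives. An eighth member, wbl, had a value on 1 of the 6 arrays and was not tested. Ero1L, the oxidase that supplies disulphides to the isomerases, stood at 1.43, 1.51 and 1.53 in control and at -1.35, -1.31 and -0.18 under XBP-1 RNAi. The control arrays were nearly equal and the RNAi arrays all negative. The difference was -2.44 ± 0.31, or 5.41-fold (adjusted p = 4.05e-05). Pdi, the main isomerase, stood at 1.00, 0.13 and 0.85 in control and at -2.09, -1.83 and -1.17 under XBP-1 RNAi, and differed by -2.36 ± 0.24 (5.12-fold, adjusted p = 4.11e-06). Control B was low for Pdi but still above every XBP-1 RNAi array. ERp60, an isomerase that works on glycoproteins, stood at 0.42, 0.48 and 0.39 in control and at -1.66, -1.82 and -1.54 under XBP-1 RNAi. The arrays of each group lay close together, and the difference was -2.10 ± 0.22 (4.30-fold). CaBP1 differed by -1.82, CG9302 by -1.55, prtp by -1.43 and ERp44, which retrieves unfinished proteins from the Golgi, by -1.07.

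**Figure D2:**
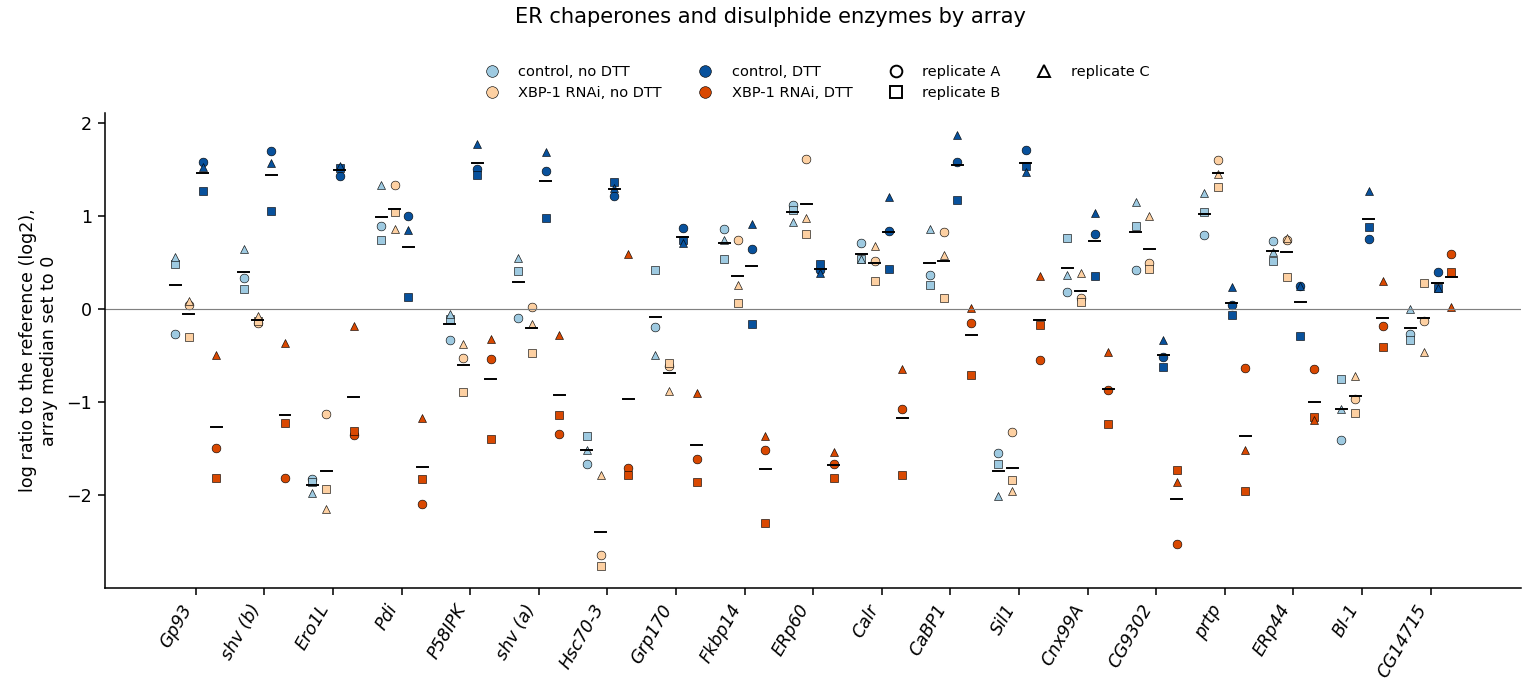
Each point is 1 array, with the centred log2 ratio on the vertical axis and the probes of the ER chaperone and disulphide enzyme lists along the horizontal axis, ordered by their difference with DTT; colours give the 4 groups, shapes the replicate letter and bars the group means. The orange points of XBP-1 RNAi with DTT lie below the dark blue points of control with DTT for each probe except CG14715, and the 2 groups without DTT overlap for most probes.

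Levels in unstressed cells differed between the members that fell. Ero1L stood at a mean of -1.89 in control without DTT, 1.49 in control with DTT and -0.95 under XBP-1 RNAi with DTT, so that its mean under XBP-1 RNAi remained above the unstressed level. Sil1 (-1.74, 1.57 and -0.12) and BI-1 (-1.08, 0.97 and -0.10) had the same order. Hsc70-3 had it by its means (-1.51, 1.29 and -0.97), but only through array C. Its stressed XBP-1 RNAi arrays stood at -1.71 (A), -1.78 (B) and 0.59 (C). A and B thus lay below every unstressed control array (-1.66, -1.36 and -1.51). Unstressed XBP-1 RNAi cells were lower still, at -2.64 (A), -2.76 (B) and -1.78 (C). Against those cells each letter of Hsc70-3 was higher with DTT, which was not tested. Pdi had another order, with 0.99 without DTT, 0.66 with DTT and -1.70 under XBP-1 RNAi with DTT. ERp60 (1.04, 0.43 and -1.67), CG9302 (0.82, -0.49 and -2.04) and prtp (1.02, 0.07 and -1.36) were likewise lower under XBP-1 RNAi with DTT than in either control state. Over the 73 probes of 6 ER lists that fell, 45 had a higher control mean with DTT than without, and 65 had an XBP-1 RNAi mean with DTT below that of unstressed control cells. Over all 331 probes that fell, the same counts were 263 and 229. Of the chaperone probes that fell, 10 of 11 had a higher control mean with DTT, against 2 of 7 of the disulphide enzymes, 7 of 15 of the import genes and 4 of 12 of the N-glycosylation genes. These counts describe means, and the effect of DTT in control cells was not tested here. The falls were called from the same means with DTT, which favours both kinds of count.

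The effect of XBP-1 RNAi was tested for a difference between states. Of the 12 chaperone probes 10 had a lower effect of XBP-1 RNAi with DTT than without, as did all 7 disulphide enzymes. Hsc70-3 stood at -1.66, -1.36 and -1.51 in control without DTT and at -2.64, -2.76 and -1.78 under XBP-1 RNAi. Every XBP-1 RNAi array was thus below every control array before stress too, with a difference of -0.88, though that comparison gave no call. The same order held without DTT for Grp170 (-0.60), a probe of shv (-0.51) and P58IPK (-0.44), also without a call. The other chaperone probes overlapped without DTT. The effects with and without DTT differed by -1.37 ± 0.54 for Hsc70-3 (adjusted p = 0.144), against -2.41 ± 0.37 for Gp93 (adjusted p = 0.00106) and -2.45 ± 0.34 for Pdi (adjusted p = 0.000409). Without DTT the chaperone list had a median difference of -0.34 and the disulphide enzymes one of 0.09.

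Genes of import into the ER fell as well. Of 19 tested members of the translocation list 15 fell and 0 rose, with a median of -1.17. The largest fall among genes measured on all 6 arrays was Trp1, the fly Sec62, a partner of the Sec61 channel for chains imported after translation. Trp1 stood at 1.17, 0.98 and 1.82 in replicates A, B and C of control with DTT and at -1.88, -2.23 and -0.63 under XBP-1 RNAi, with replicate C again the least reduced. The difference was -2.90 ± 0.28, or 7.48-fold (adjusted p = 2.57e-06). Its partner Sec63, which recruits Hsc70-3 to the channel, stood at 0.50, 0.50 and 0.66 in control and at -1.21, -1.62 and -1.24 under XBP-1 RNAi, and differed by -1.91 ± 0.21. Its 2 groups did not overlap, and here replicate C was not less reduced than A. The channel subunits Sec61beta (-1.26), Sec61gamma (-0.96) and Sec61alpha (-0.63) also fell. So did Spase25 (-1.65), a subunit of the signal peptidase that trims imported chains, the translocon-associated CG5885 (-1.61) and both subunits of the receptor for the signal recognition particle, SrpRalpha (-1.37) and SrpRbeta (-1.17). The particle itself was mixed, with Srp68 (-1.31) and Srp72 (-0.72) past the threshold and Srp54k (-0.56), Srp9 (-0.46) and Srp19 (0.20) not. The count of 15 was 9 without the replicate letter in the model, and 11 without replicate C of control or replicate C of XBP-1 RNAi.

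In N-glycosylation 12 of 23 tested genes fell and 0 rose, with a median of -0.72. The 4 largest falls were the 2 subunits of glucosidase II, which trims glucose from the new glycan and so controls binding to calnexin, and 2 subunits of the oligosaccharyltransferase, which attaches the glycan. GCS2beta stood at -0.02, -0.63 and -0.06 in control and at -1.52, -1.89 and -2.01 under XBP-1 RNAi, and differed by -1.57 ± 0.23 (2.97-fold, adjusted p = 0.000146). GCS2alpha differed by -1.45 ± 0.21, Ost48 by -1.44 ± 0.21 and OstDelta by -1.35 ± 0.19. The groups did not overlap for any of these 4 genes. The catalytic subunits of the oligosaccharyltransferase were unlike in value, at -1.24 for Stt3B, which passed, and at -0.0033 for Stt3A, which did not. Of the enzymes that build the glycan, Alg7, wol, Alg11, Dpm1 and Alg1 fell by 0.71 to 1.09, and Alg9, Alg14, Alg12, Alg2 and Alg13 lay between -0.34 and 0.40 and did not pass. The count of 12 was 6 without the replicate letter in the model and 8 when XBP-1 RNAi C was left out.

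Transport between ER and Golgi had 20 of 34 tested probes fall and 0 rise, with a median of -1.04. Slh, the fly Sly1, which promotes vesicle fusion, stood at 0.98, 0.96 and 1.03 in control and at -1.14, -1.03 and -0.66 under XBP-1 RNAi. These groups were tight and far apart, with a difference of -1.93 ± 0.19 (3.82-fold, adjusted p = 3.29e-06). A second probe assigned to Slh differed by -0.04 and did not pass, so the 2 probes disagree. Sec23, part of the inner COPII coat of vesicles leaving the ER, stood at 1.01, 1.02 and 1.12 in control and at -1.32, -1.0 and -0.28 under XBP-1 RNAi, and differed by -1.92 ± 0.27. The control arrays of Sec23 were nearly equal, and all XBP-1 RNAi arrays lay below them. Other COPII genes that fell were Sec24CD (-1.51), Sec31 (-1.22) and Sec13 (-1.05), whereas the GTPase Sar1 (-0.31), Sec16 (-0.39) and Sec24AB (-0.76) did not pass. All 7 tested coat subunits of COPI, which carries proteins back to the ER, fell: betaCOP (-1.64), deltaCOP (-1.54), gammaCOP (-1.50), beta'COP (-1.08), epsilonCOP (-1.07), alphaCOP (-0.997) and zetaCOP (-0.92). KdelR, the receptor that retrieves escaped chaperones by this route, differed by -1.07. Grasp65, a Golgi stacking protein, differed by -1.88 ± 0.20 and the fusion protein Sec22 by -1.74 ± 0.25.

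ER-associated degradation, which returns misfolded proteins to the cytosol for the proteasome, had 8 of 13 tested genes fall and 0 rise, with a median of -0.76. Der-2, a derlin of the export channel, stood at 1.37, 0.93 and 1.72 in control and at -0.38, -0.71 and 0.01 under XBP-1 RNAi, without overlap, and differed by -1.70 ± 0.17 (3.25-fold, adjusted p = 4.40e-06). Hrd3, which feeds substrates to the ubiquitin ligase of this pathway, differed by -1.63 ± 0.24, and Herp, a scaffold of the same complex, by -1.41 ± 0.20. Der-1 (-1.32), CG6766 (-1.33), TER94 (-0.79), which pulls substrates out, the conjugating enzyme Ubc7 (-0.76) and the mannose-binding Edem2 (-0.75) fell too. Edem1 (-0.69), Ufd1 (-0.32), Npl4 (-0.29), Pngl (0.02) and sordd1 (0.44) did not pass. The count of 8 was 4 without the replicate letter in the model, and 5 on the values as deposited, without variance moderation, or without any 1 of control B, control C, XBP-1 RNAi B and XBP-1 RNAi C. The proteasome itself had 1 of 39 tested probes fall and 0 rise, Prosbeta7 by 0.80, with a median of -0.14. That call ended under several alternatives, among them the omission of any control array or of XBP-1 RNAi B or C (adjusted p from 0.0504 to 0.161).

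**Figure D3:**
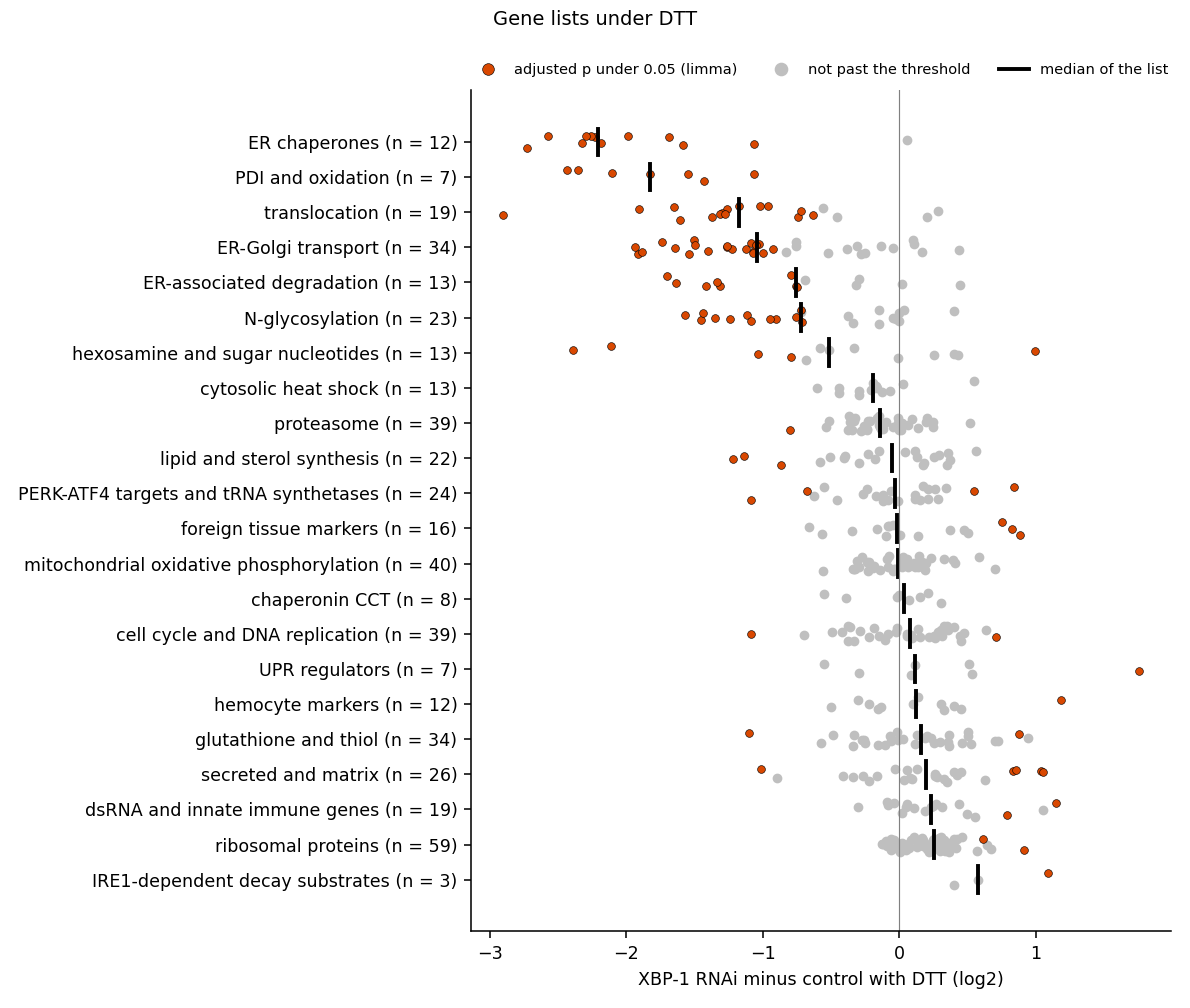
Each point is a probe of 1 of the 22 gene lists, placed by its log2 difference between XBP-1 RNAi and control with DTT on the horizontal axis, with lists on the vertical axis ordered by median; orange points passed the test in limma, grey points did not and black bars are list medians. The 6 ER lists have the lowest medians, from -2.21 to -0.72, and the ribosomal, proteasome, oxidative phosphorylation and CCT lists have medians within 0.25 of 0.

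Together the 6 ER lists held 108 tested probes, of which 73 fell, and these 73 were 22.1% of all probes that fell. Against the 5.63% of all probes tested that fell, the counts by list ran from 12 of 23 (N-glycosylation) to 7 of 7 (disulphide enzymes). The test of the difference between states passed for 10 of 12 chaperone probes, 7 of 7 disulphide enzymes, 13 of 19 translocation genes, 7 of 23 N-glycosylation genes, 17 of 34 transport probes and 5 of 13 degradation genes, each with the lower effect under DTT. The share of all probes with such a call was 4.49%.

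Supply of sugar nucleotides and lipids gave fewer falls. Of 13 tested genes of the hexosamine and sugar nucleotide list 4 fell and 1 rose, with a median of -0.51. The largest was meigo, of the family of ER nucleotide sugar transporters, which stood at 1.40, 1.07 and 1.93 in control and at -0.57, -1.52 and -0.67 under XBP-1 RNAi, and differed by -2.39 ± 0.23 (5.23-fold, adjusted p = 2.57e-06). Gfat2, which makes glucosamine phosphate in the first step of the hexosamine pathway, stood at 1.03, 0.88 and 0.96 in control and at -1.60, -1.37 and -0.50 under XBP-1 RNAi, and differed by -2.11 ± 0.28. The groups did not overlap for meigo or Gfat2. Gfat1, a paralog of Gfat2, at -0.33, did not pass. The transporter Efr differed by -1.04 ± 0.23 and the GDP-mannose dehydratase Gmd by -0.79. UGP, which makes UDP-glucose, rose by 0.99 ± 0.23, a call that ended under several alternatives, among them the omission of replicate A of either group (adjusted p = 0.0903 and 0.0603). In lipid and sterol synthesis 3 of 22 tested probes fell and 0 rose, with a median of -0.05. These were Pis (-1.22), Pcyt1 (-1.14) and Pcyt2 (-0.87), which make phosphatidylinositol and the activated head groups of the other main phospholipids. Pcyt2 had values on 2 control arrays with DTT. SREBP (-0.51), ATPCL (-0.41) and ACC (0.29), of sterol and fatty acid synthesis, did not pass. The calls of Pis and Pcyt2 ended without the replicate letter in the model (adjusted p = 0.0539 and 0.0633), that of Pis also without control C (adjusted p = 0.0589), and that of Pcyt2 without XBP-1 RNAi B or C (adjusted p = 0.0524 and 0.0618).

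Of the 12 largest falls measured on all 6 arrays, 8 belonged to the lists above and 4 did not. Next after Trp1 was scf, a calcium-binding protein of the ER, which stood at 1.44, 0.78 and 1.55 in control and at -1.27, -2.50 and -0.87 under XBP-1 RNAi, and differed by -2.80 ± 0.29 (6.98-fold, adjusted p = 4.40e-06). CG2004 stood at 2.02, 1.63 and 1.98 in control and at -0.53, -1.11 and -0.48 under XBP-1 RNAi. Its difference of -2.58 ± 0.19 had the smallest adjusted p of the comparison, 3.72e-07. The saposin-like ER protein gene sel stood at 1.48, 0.56 and 1.80 in control and at -0.79, -1.90 and -0.53 under XBP-1 RNAi, and differed by -2.35 ± 0.22. All 3 genes had every XBP-1 RNAi array below every control array. CG14740 differed by -2.25 ± 0.22 and was measured too rarely without DTT for the test of the difference between states. A larger estimate rested on 5 arrays and is named after its value was seen: CG10184 stood at 1.74, 1.31 and 2.48 in control and at -2.45 and -0.82 in replicates B and C of XBP-1 RNAi, a difference of -3.36.

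**Figure D4:**
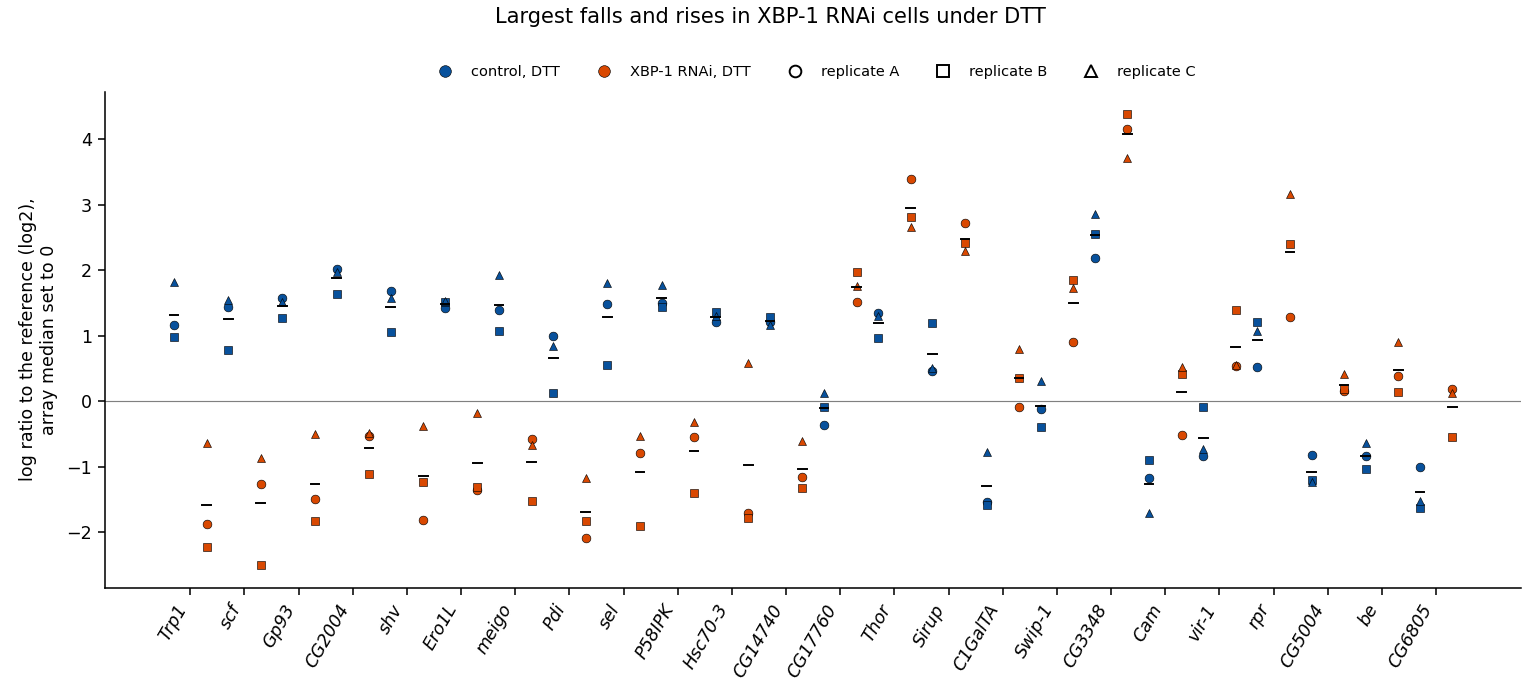
Each point is 1 array, with the centred log2 ratio on the vertical axis and the 12 largest falls (left) and 12 largest rises (right) along the horizontal axis; blue is control with DTT, orange XBP-1 RNAi with DTT, shapes give the replicate letter and bars the group means. The groups are separated for all 24 genes. These genes were chosen by call, size and sign on the same arrays, so the separation is no separate support. Replicate C of XBP-1 RNAi (triangles) is the highest orange point for 11 of the 12 falls, and Hsc70-3 has its C point at 0.59 with A and B at -1.71 and -1.78.

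Rises were fewer and smaller than falls. Thor, the fly 4E-BP, which blocks cap-dependent translation and is a target of the PERK branch factor ATF4, stood at 1.34, 0.96 and 1.30 in control and at 3.40, 2.81 and 2.66 under XBP-1 RNAi. Every XBP-1 RNAi array was above every control array, and the difference was 1.76 ± 0.27 (3.38-fold, adjusted p = 0.000206). CG17760 had the largest rise among genes measured on all 6 arrays, 1.85 ± 0.27, from -0.36, -0.08 and 0.13 in control to 1.51, 1.98 and 1.76. Sirup, an assembly factor of mitochondrial complex II, stood at 0.46, 1.20 and 0.51 in control and at 2.72, 2.42 and 2.30 under XBP-1 RNAi, and differed by 1.76 ± 0.23 (adjusted p = 4.60e-05). The groups were far apart for both of these genes. C1GalTA, which extends mucin-type glycans, rose by 1.66 ± 0.22, and the actin-binding Swip-1 by 1.56 ± 0.24. The cell death gene rpr stood at 0.52, 1.21 and 1.07 in control and at 1.28, 2.40 and 3.17 under XBP-1 RNAi. These groups were separated by a narrow margin, with a difference of 1.35 ± 0.28 (adjusted p = 0.00613), and the call ended without the replicate letter in the model (adjusted p = 0.11) and without variance moderation (adjusted p = 0.104).

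The remaining large rises were CG3348 (1.55 ± 0.33), calmodulin (Cam, 1.41 ± 0.39), the virus-induced gene vir-1 (1.38 ± 0.26), CG5004 (1.34 ± 0.22), be (1.31 ± 0.22) and CG6805 (1.30 ± 0.16). CG3348 stood at 2.19, 2.55 and 2.86 in control and at 4.15, 4.38 and 3.71 under XBP-1 RNAi, without overlap, and its call ended with quantile normalization (0.58, adjusted p = 0.334). The call of Cam ended without control B (adjusted p = 0.11), without control C (adjusted p = 0.081) or without XBP-1 RNAi C (0.92, adjusted p = 0.196). Most large rises were not particular to XBP-1 RNAi. Set against control with DTT, the arrays labelled IRE1 RNAi also passed for Thor (1.49), CG17760 (1.45), Sirup (1.49), C1GalTA (1.82) and Swip-1 (1.24). So did CG3348 (1.91), vir-1 (1.69), CG5004 (0.90), be (1.10) and CG6805 (2.54), whereas rpr (0.51) and Cam (1.07) did not. Both comparisons share the control arrays. Cyp6a8, a cytochrome P450 named after its value was seen, had the largest estimate of all rises, 2.16, from 2 XBP-1 RNAi arrays at -0.08 and 1.16 against control at -1.53, -2.03 and -1.19.

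Calls among other regulators of the response and genes of the PERK branch went both ways. They are to be read against the 5.63% of all probes that fell and the 2.08% that rose. Of the 7 tested probes of the list of regulators only Thor passed, and the median was 0.12. Atf6, the third ER stress sensor, differed by 0.51 ± 0.22 (adjusted p = 0.233), and crc, the fly ATF4, stood at -0.66, -0.48 and -0.56 in control and at -0.21, -0.11 and 0.22 under XBP-1 RNAi, and differed by 0.53 ± 0.27 (adjusted p = 0.295). The groups did not overlap for crc, yet it did not pass, and nothing is read from the separation. PPP1R15, which reverses the action of PERK, differed by 0.09 ± 0.21. PEK, the fly PERK, and Gcn2 had too few values to be tested. Among 24 targets of this branch and tRNA synthetases 2 fell, beta-PheRS by 1.09 and Cth by 0.68, and 2 rose, aay by 0.84 and GlyRS by 0.55, with a median of -0.03. Of these 4 calls only that of beta-PheRS held under each alternative.

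Genes of secreted and matrix proteins, the cargo of the ER, had calls in both directions. Over all probes tested, 5.63% fell and 2.08% rose. Of 26 tested probes 1 fell, the collagen-modifying enzyme Plod by 1.01, and 4 rose: the growth factor Idgf1 (1.05 ± 0.27), ImpL2, which binds insulin-like peptides (1.04 ± 0.29), the cathepsin CtsL1 (0.85 ± 0.24) and Idgf3 (0.83). The call of Plod ended without the replicate letter in the model (-0.84, adjusted p = 0.177). The rises numbered 0 on the values as deposited, without variance moderation, and without control A or control B. The collagen vkg (0.32 ± 0.25) and the laminin LanB2 (-0.27 ± 0.24), both of the basement membrane, did not pass. Plod, CtsL1 and LanB2 each had values on 2 XBP-1 RNAi arrays with DTT. Those of CtsL1 (-0.56 and -1.75) overlapped control (-1.51, -2.36 and -2.10), and its call ended with quantile normalization (adjusted p = 0.135). The median of the list was 0.20.

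Genes known as substrates of IRE1-dependent decay, a choice that is not independent of these samples, were set against the arrays labelled IRE1 RNAi. On those arrays the Ire1 probe was high rather than low, at 1.44, 2.81 and 3.01, so the name is kept as a label. Comparisons with control and with these arrays share samples and are given side by side. SPARC, a matrix glycoprotein, stood at -1.71, -2.37 and -2.06 in control with DTT and at -0.97, -1.85 and -2.13 under XBP-1 RNAi. The arrays labelled IRE1 RNAi stood at 0.90, 1.17 and 1.43, close to the mean of 1.61 in control without DTT. SPARC thus overlapped between control and XBP-1 RNAi (0.40 ± 0.28, adjusted p = 0.501) and differed by -2.82 ± 0.28 between XBP-1 RNAi and the arrays labelled IRE1 RNAi (adjusted p = 1.09e-05).

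Hydr2, a hydrolase, gave the same order, at -1.79, -1.88 and -1.53 in control, -0.87, -1.68 and -0.93 under XBP-1 RNAi and 1.65, 1.00 and 0.93 on the arrays labelled IRE1 RNAi. Its differences were 0.57 ± 0.21 from control (adjusted p = 0.112) and -2.35 ± 0.21 from the arrays labelled IRE1 RNAi. Indy, a citrate transporter, stood at -2.33, -2.68 and -2.66 in control and at -1.91, -1.07 and -1.42 under XBP-1 RNAi, and at 0.53, 1.27 and 1.12 on the arrays labelled IRE1 RNAi. Set against control with DTT, the arrays labelled IRE1 RNAi had 277 of 5858 probes lower (4.73%) and 320 higher (5.46%), with SPARC at 3.21, Hydr2 at 2.93 and Indy at 3.53. Indy was the only one of the 3 to rise under XBP-1 RNAi, by 1.09 ± 0.25 (adjusted p = 0.00894), a call that ended without control B or C, without replicate B of XBP-1 RNAi (0.89, adjusted p = 0.0641) and with quantile normalization (0.85, adjusted p = 0.119). The fall from the arrays labelled IRE1 RNAi was larger, -2.44 ± 0.25. Thor, in contrast, differed from those arrays by 0.26 ± 0.27 and did not pass (adjusted p = 0.892).

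**Figure D5:**
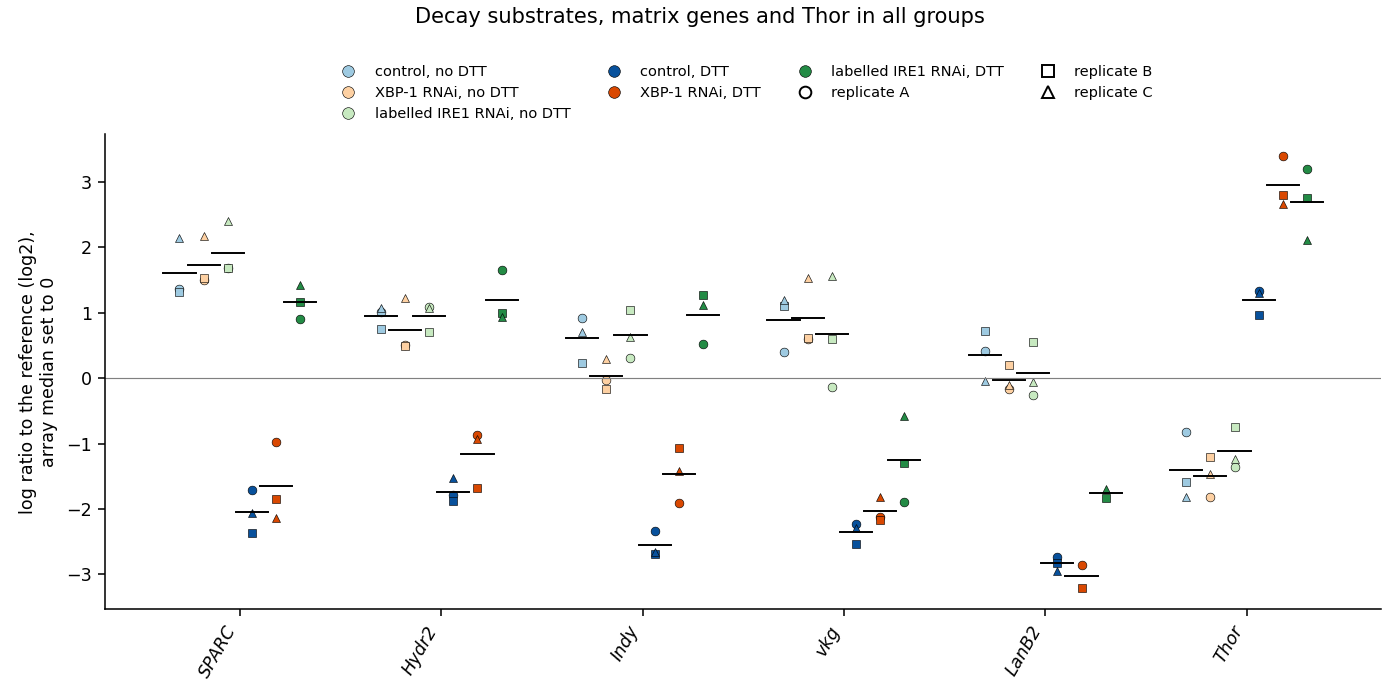
Each point is 1 array, with the centred log2 ratio on the vertical axis and 6 genes along the horizontal axis; pale and dark colours are the groups without and with DTT (blue control, orange XBP-1 RNAi, green arrays labelled IRE1 RNAi), shapes give the replicate letter and bars the group means. SPARC, Hydr2 and Indy are low in control and XBP-1 RNAi with DTT and near 1 on the arrays labelled IRE1 RNAi with DTT, whereas Thor is high on both RNAi groups with DTT.

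ER genes differed between the RNAi groups too. In a comparison added after seeing the data, that of XBP-1 RNAi with the arrays labelled IRE1 RNAi under DTT, 193 of 5728 probes (3.37%) were lower and 1 (0.0175%) higher in limma. Replicate A labelled IRE1 RNAi with DTT had 3755 values, with 48.3% of probes empty. When 3 values were required in each group, 167 of 3368 probes were lower and 1 higher. Of the folding genes, 6 of 12 chaperone probes and 6 of 7 disulphide enzymes were lower under XBP-1 RNAi. CG9302 differed most, by -2.02 ± 0.21, from -2.52, -1.73 and -1.86 under XBP-1 RNAi to -0.84, 0.15 and 0.65 on the arrays labelled IRE1 RNAi. ERp60 differed by -1.82 ± 0.22 and Pdi by -1.31 ± 0.24, while Hsc70-3 (-0.57 ± 0.38) and Gp93 (-0.79 ± 0.26) did not pass. Without replicate C of XBP-1 RNAi, Hsc70-3 differed by -1.22 and passed (adjusted p = 0.0301). On the values as deposited 40 probes were lower and 2 higher, and the median of all probes moved by 0.27, against -0.09 in the comparison with control.

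Lists outside the secretory pathway had few calls, to be read against the 5.63% of all probes that fell and the 2.08% that rose. None of 40 oxidative phosphorylation probes, 13 cytosolic heat shock probes and 8 probes of the cytosolic chaperonin CCT passed in limma, with medians of -0.01, -0.19 and 0.04. The 59 ribosomal protein probes had a median of 0.25 and 0 fell. RpL35 rose (0.91), a call that ended under several alternatives, quantile normalization among them. Of 39 cell cycle and replication probes Mcm3 fell (-1.08) and the phosphatase stg, which starts mitosis, rose (0.71), and both calls ended without control A or on the values as deposited. Mcm3 had values on 2 XBP-1 RNAi arrays with DTT. Of 34 glutathione and thiol probes GstO1 fell (-1.10 ± 0.18) and GstE7 rose (0.87 ± 0.23), with a median of 0.16. The call of GstE7 ended with quantile normalization (0.25, adjusted p = 0.662) and without control A or B or XBP-1 RNAi A or B.

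Immune, hemocyte and foreign markers were read because only the RNAi cells had received double-stranded RNA. Of 19 tested probes of RNA interference and innate immunity 2 rose, the Toll ligand spz (1.14 ± 0.31) and the Toll pathway inhibitor cact (0.79 ± 0.22), and the RNA interference genes Dcr-2 (0.19), r2d2 (0.27) and AGO2 (0.44) did not pass. Both calls ended under several alternatives, among them the omission of control B, control C, XBP-1 RNAi A or XBP-1 RNAi C. Over all probes tested, 2.08% rose. The arrays labelled IRE1 RNAi, whose cells also received double-stranded RNA, passed against control with DTT for spz (1.48) but not for cact (0.64). The virus-induced gene vir-1, outside this list, rose by 1.38 under XBP-1 RNAi and by 1.69 on those arrays. The part of double-stranded RNA in these values was not tested. Of 12 tested hemocyte probes 1 rose, a probe of the engulfment receptor drpr (1.18 ± 0.18, adjusted p = 0.00019), while the second probe of drpr differed by -0.13 and did not pass. List medians of the hemocyte markers ran from -1.20 to -0.69 on the control arrays with DTT and from -0.97 to -0.76 on the XBP-1 RNAi arrays. Of 16 tested foreign tissue probes 3 rose, all of them actins: Act57B (0.89), Act87E (0.83) and Act79B (0.75). Actin genes are nearly identical in sequence, so a spot may not tell them apart, and the 3 calls ended on the values as deposited. The foreign list medians ran from -1.04 to -0.88 in control and from -0.67 to -0.55 under XBP-1 RNAi. Each was taken over the probes with a value on that array. Probe by probe the median difference of the list was -0.02, and 8 of the 16 estimates were below 0. The part of such cells or of cross-hybridization in the results was not tested.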

How the data were processed

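RNA of S2 cells was measured on 2-colour spotted arrays. The deposited values are log2 ratios by the reading used here, since the labels give the dyes (Cy5 sample, Cy3 reference) but neither base nor direction. Normalization was done by the authors with NOMAD, per the labels, and spots were dropped if they were visibly defective, had an R2 between channels under 0.5 or lay under 1.5-fold above background. Scanner intensities were not used here. Precision is limited by how many arrays a group has and by the dropped spots.

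Here each array was centred on its median. Probe numbers were read as CG gene numbers: 6683 probes were named by locus tag in the RefSeq annotation and 450 by synonym, 114 matched several genes and 10 none, and 6973 genes were named. Symbols from the platform annotation were not used. Groups and letters came from the sample titles. Each probe was fitted with limma 3.58.1 in R 4.3.3 (lmFit and eBayes) on 18 arrays, with 6 group means and the replicate letter as a block. A contrast needed 2 values in each of its groups. Adjusted p-values are 2-sided Benjamini-Hochberg values over all probes tested, with a threshold of 0.05, and errors after ± are standard errors from limma. The script was tested on simulated data.

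The letters pair the samples: after removal of group means, same-letter arrays of control and XBP-1 RNAi with DTT correlated at 0.497 (A), 0.363 (B) and 0.4 (C). At most 0.7% of values were identical between arrays of a group, so none was counted as a duplicate.

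The text names Xbp1 and Ire1, the 12 largest falls and 12 largest rises past the threshold with 3 values per group and the same sign in all 3 pairs, up to 4 called members of each of 22 gene lists, all members of 3 ER lists, and 5 genes whatever their values. Other list members are given with their values only to complete a list. Most named genes were chosen by call or size on these arrays, so groups that do not overlap are no separate support for them. The members and lists were chosen with earlier results of these data known, and lists are described by counts and medians without a test of their own. The comparison with the arrays labelled IRE1 RNAi was added after seeing the data. Alternatives were other scalings, blocks, variance models, array sets, a stricter filter on missing values and the omission of each array in turn. Promoter sequences were not used here. A result for 1 gene named by the rule is not reported here.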

Additional observations from a re-analysis of the deposited data

Results flagged for a closer look

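For 59 probes of 58 genes named above, the effect of XBP-1 RNAi with DTT differed from its effect without DTT when that difference was tested itself in limma (adjusted p under 0.05 over 5483 probes). The values below are log2 differences between the 2 effects, and negative values mean a lower effect with DTT. They rest on the same DTT arrays as the report, so they repeat its direction and are no separate support for it. No explanation was weighed.

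Among ER chaperones the difference was -2.41 for Gp93, -2.06 and -1.81 for the 2 probes of shv, -1.89 for P58IPK, -1.89 for Calr, -1.83 for Fkbp14, -1.73 for Sil1, -1.63 for Grp170, -1.34 for Cnx99A and -1.20 for BI-1. Among disulphide enzymes it was -2.59 for Ero1L, -2.45 for Pdi, -2.19 for ERp60, -1.86 for prtp, -1.84 for CaBP1, -1.37 for CG9302 and -1.06 for ERp44. Import genes had -2.50 for Trp1, -1.93 for Sec63, -1.93 for CG5885 and -1.72 for Spase25. Glycosylation genes had -1.60 for Ost48, -1.52 for OstDelta, -1.50 for GCS2beta and -1.28 for GCS2alpha. Transport genes had -2.16 for Grasp65, -2.01 for Slh, -1.91 for Sec23 and -1.45 for Sec22, and degradation genes had -1.88 for Hrd3, -1.82 for Der-2 and -1.30 for Herp.

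Other genes with a lower effect under DTT were scf (-2.79), CG2004 (-2.73), Gfat2 (-2.38), sel (-2.36), meigo (-2.33), beta-PheRS (-1.33), Mcm3 (-1.27), Prosbeta7 (-1.20), Pcyt1 (-1.10), GstO1 (-1.08) and Plod (-0.96). Genes with a higher effect under DTT were Cam (2.12), Thor (1.85), be (1.78), CG3348 (1.77), Swip-1 (1.76), CG17760 (1.70), Indy (1.67), Sirup (1.64), CG5004 (1.59), vir-1 (1.51), ImpL2 (1.44), drpr (1.42), CG6805 (1.34), C1GalTA (1.16), UGP (1.16) and stg (1.15). Of these 59 calls 21 held under each alternative and 38 ended under at least 1.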

How the results depend on the processing

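Under DTT the falls and rises numbered 212 and 42 on the values as deposited and 201 and 39 with no replicate block, and the rises 77 without variance moderation. With single arrays left out the falls ran from 234 to 282, with 234 without XBP-1 RNAi C, and the rises from 62 to 103, with 62 without control A and 68 without control B. Without DTT there were 2 falls as deposited, and 0 to 0 falls and rises with single arrays left out. For the difference between states, lower and higher calls numbered 69 and 13 with no replicate block and 159 and 36 without variance moderation, and higher calls 25 as deposited and 66 with quantile normalization. Single omissions gave 149 to 241 lower calls, with 149 without control A, 157 without XBP-1 RNAi A (both without DTT) and 162 without XBP-1 RNAi C with DTT. They gave 40 to 167 higher calls: without DTT 40 without control A, 51 without XBP-1 RNAi A and 62 without XBP-1 RNAi B, and with DTT 61 without control A, 55 without control B and 53 without XBP-1 RNAi C. Its share of lower calls was 66.8%, against 86.9% as deposited, 78.1% with quantile normalization, 58.6% on the control and XBP-1 RNAi arrays only (256 and 181) and 55.7% without control C of the cells not given DTT (210 and 167). Between XBP-1 RNAi and the arrays labelled IRE1 RNAi there were 40 lower and 2 higher calls as deposited, 95 and 0 with no replicate block, 4 higher with quantile normalization, 0 higher without variance moderation, and 136 to 171 lower and 0 to 6 higher with single arrays left out. The causes were not tested.

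Of 79 named calls under DTT 54 held under each alternative, 25 ended under at least 1 and 0 reversed. Values below the threshold turned sign for CG14715 and PPP1R15 as deposited (-0.037 and -0.0067), for PPP1R15 without control B (-0.071), XBP-1 RNAi B (-0.052) or XBP-1 RNAi C (-0.074), for Ire1 without control B (-0.007), control C (-0.018) or XBP-1 RNAi C (-0.13), and for CG14715 and SPARC without XBP-1 RNAi A (-0.006 and -0.0083). Against the arrays labelled IRE1 RNAi, CG14715 turned without XBP-1 RNAi A (-0.0093) or IRE1 RNAi C (-0.074). With single arrays left out the estimates ran up to 0.14 for CG14715, 0.39 for PPP1R15, 0.38 for Ire1 and 0.81 for SPARC, and up to 0.21 for CG14715 against the arrays labelled IRE1 RNAi. With 3 arrays a group, genes with removed spots could not be tested, and dim spots have no bound on their level here.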

Other observations

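The lists in this paragraph were chosen after the values were seen, carry no test of their own and describe only the comparison under DTT. Over all 5877 probes tested 2.08% rose and 5.63% fell, and nothing is read from the lists' counts against these shares, since the lists were chosen with the values in view. Genes of actin and its regulators had 11 of 25 tested probes rise and 1 fall, with a median of 0.54. Among those that rose were the GTPase Rac2 (1.16), the nucleators spir (1.03) and capu (0.66 and 0.64 by its probes), the pointed-end cap tmod (1.03), the cofilin tsr (0.91), the profilin chic (0.79) and the membrane linker Moe (0.65), and SCAR fell by 0.98. Cell death and stress kinase genes had 5 of 16 tested probes rise and 0 fall, with a median of 0.37: rpr (1.35), the kinase Tak1 (1.13), the AP-1 subunit Jra (1.01), the initiator caspase Dronc (0.65) and p53 (0.63). A second probe of Tak1 differed by -0.38 and did not pass. Of 16 tested probes of glycolysis and glycogen metabolism 5 rose, with a median of 0.45: the glycogen phosphorylase Glyp (1.10), UGP (0.99), Ldh (0.76), Gapdh1 (0.72) and the glycogen synthase Glys (0.69). In the COG complex, which tethers vesicles at the Golgi, 2 of 4 tested genes fell, Cog6 by 2.00 and Cog4 by 0.86, with a median of -0.64.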
